A study of Mus musculus with 11 samples.

Results

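The 10 genes of the smooth muscle contractile program described here were measured by RNA-seq in cultured fetal mouse lung mesenchymal cells: *Acta2*, *Actg2*, *Myh11*, *Tagln*, *Cnn1*, *Myocd*, *Lmod1*, *Smtn*, *Des* and *Mylk*. They were chosen by name, and all 10 had a row among the 24062 genes of the count tables. Cells came from embryonic day 15 lungs of WT (Sp3+/+, 4 libraries), Sp3+/- (4 libraries) and Sp3-/- (3 libraries) embryos of Sp3+/- matings. They were selected only by rapid attachment to plastic and then passaged, so the cultures could hold more than 1 cell type, and the strain is not given in the sources used here. Sp3 is a zinc finger transcription factor that binds GC-rich promoter elements. The labels do not say that each library came from a separate embryo or culture, so p-values measure the spread between these libraries.

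Smooth muscle cells shorten when myosin heads pull on actin filaments. Calcium and calmodulin switch on myosin light chain kinase, which phosphorylates the regulatory light chain of smooth muscle myosin, and calponin, transgelin and leiomodin bind the actin filaments. Many genes of this apparatus carry CArG boxes, the DNA element bound by serum response factor (SRF), and the SRF coactivator myocardin is a master regulator of the contractile program. In the fetal lung these proteins mark airway and vascular smooth muscle and, later, alveolar myofibroblasts, and several of them also rise in fibroblasts grown on plastic.

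Sequence upstream of the transcription start is shown for members with and without a CArG-like element, because the program is defined by that element and Sp proteins bind GC boxes. A RefSeq promoter on GRCm38.p6 was matched for 6 of the 10 members. *Actg2*, *Myh11*, *Tagln* and *Myocd* were not matched. The 250 bases before the start were searched on both strands for a CArG box (CC, then 6 bases that are A or T, then GG) with at most 1 mismatch and for the GC box GGGCGG or its complement CCGCCC, with overlapping matches counted. None of the 6 windows searched held a perfect CArG box, and the other members and more distant sequence were not searched. Matches with 1 mismatch were found in 2 members, *Acta2* (at −84 to −75 and −34 to −25) and *Lmod1* (at −189 to −180 and −164 to −155). GC boxes were found in 3 members, at −87 and −69 in *Des*, at −87 in *Lmod1* and at −92 and −7 in *Smtn*, where each position is the first base of the match. *Cnn1* and *Mylk* had neither in this window. The *Mylk* window (chr16:34784700-34784949) precedes a start inside the gene (chr16:34745199-35002436), so the sequence before its first annotated base was not searched. The starts used for *Acta2* and *Cnn1* also lie inside the annotated genes, and the first annotated base of each falls within its window. Over 32851 RefSeq promoter windows of the same length, 1.47% held a perfect CArG box, 18.6% held one with at most 1 mismatch and 32.7% held a GC box. A match is a run of letters and does not show binding. The printed stretches run 5′ to 3′ in the direction of the gene, with CArG-like and GC box matches in capitals. The 4 longer stretches cover −250 to −71, and for *Acta2* only 30 bases around each match are given because annotated transcripts with an earlier start include them.
Acta2 distal match, chr19:34255438-34255467, minus strand: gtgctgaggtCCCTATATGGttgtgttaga
Acta2 proximal match, chr19:34255388-34255417, minus strand: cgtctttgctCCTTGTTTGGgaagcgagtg
Lmod1, chr1:135324563-135324742, plus strand: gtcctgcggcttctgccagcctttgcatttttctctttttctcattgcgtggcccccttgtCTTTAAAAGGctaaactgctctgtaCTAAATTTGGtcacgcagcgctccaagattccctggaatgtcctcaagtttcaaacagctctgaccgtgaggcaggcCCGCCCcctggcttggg
Cnn1, chr9:22099003-22099182, plus strand: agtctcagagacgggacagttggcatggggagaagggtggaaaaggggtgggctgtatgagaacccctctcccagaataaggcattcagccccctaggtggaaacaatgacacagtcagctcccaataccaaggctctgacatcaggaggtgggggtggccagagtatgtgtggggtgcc
Smtn, chr11:3539363-3539542, minus strand: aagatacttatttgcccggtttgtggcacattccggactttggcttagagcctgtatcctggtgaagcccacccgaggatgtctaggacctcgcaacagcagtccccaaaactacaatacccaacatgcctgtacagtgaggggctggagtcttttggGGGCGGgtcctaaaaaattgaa
Des, chr1:75360042-75360221, plus strand: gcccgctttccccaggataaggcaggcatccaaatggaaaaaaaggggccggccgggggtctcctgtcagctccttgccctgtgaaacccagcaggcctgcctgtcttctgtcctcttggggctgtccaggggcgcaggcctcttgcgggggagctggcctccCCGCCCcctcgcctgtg

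**Figure D1:**
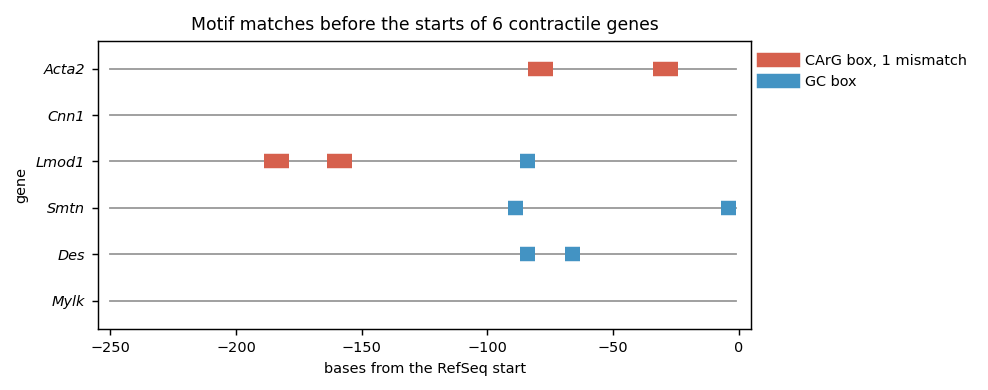
Positions of motif matches in the 250 bases before a RefSeq start of each of 6 contractile genes, with distance from that start in bases on the x axis. The starts used for *Mylk*, *Acta2* and *Cnn1* lie inside the annotated genes. CArG-like matches (1 mismatch, red) lie in *Acta2* and *Lmod1*, GC boxes (blue) in *Lmod1*, *Smtn* and *Des*, and *Cnn1* and *Mylk* have neither.

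Each library held 9849111 to 59297495 reads on genes, with a median of 34968482, and *Sp3* was lower in every Sp3-/- library (3.89 to 4.23 log2 CPM) than in any WT library (5.94 to 6.75 log2 CPM). Library titles end in a suffix whose meaning is not given. All 3 Sp3-/- libraries, WT library 468-4 and Sp3+/- library 697-4 have none, the other WT libraries have suffix 3, and the other Sp3+/- libraries have suffix 2 or 3. The file of 697-4 carries suffix 2 in its name, and the suffix values given here follow the titles. Genotype and suffix therefore could not be fully told apart, and values that take the suffix into account are given with the comparisons. Levels of single libraries are log2 CPM, the reads of a gene scaled to the TMM-adjusted library size, with a prior count of 2. Changes are log2 fold changes from edgeR's quasi-likelihood test. A gene is called at an adjusted p (Benjamini-Hochberg over all genes tested) below 0.05.

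The program was strongly expressed in WT cultures. Per 1000 bases of its main transcript (lengths from GENCODE vM39, which may differ from the annotation used for counting), *Tagln* reached a level of 2850 ± 835 CPM per kb and *Acta2* 2410 ± 968 (mean ± SD, n = 4 WT libraries). The level was 906 ± 605 CPM per kb for *Actg2*, 405 ± 184 for *Des*, 287 ± 139 for *Cnn1* and 140 ± 94.1 for *Myh11*. *Mylk* (48.7 ± 30.3), *Smtn* (40.2 ± 12.4) and *Lmod1* (29.6 ± 14.2) were lower on the same scale, and *Myocd*, which encodes a transcription regulator and not a filament protein, was lowest at 0.498 ± 0.193 CPM per kb. Ranges of neighbours in this order overlapped except at 2 steps, from *Acta2* (lowest library 1820 CPM per kb) to *Actg2* (highest 1800) and from *Lmod1* (lowest 16.8) to *Myocd* (highest 0.674). Within single WT libraries the same order held in 4 of 4 for every neighbouring pair except *Mylk* over *Smtn* (2 of 4) and *Smtn* over *Lmod1* (3 of 4), so those 2 pairs had no fixed order.

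Without Sp3, 7 of the 10 contractile genes fell, *Mylk* missed the threshold, and *Smtn* and *Des* had estimates near 0. The 7 called lower were *Myh11*, *Actg2*, *Cnn1*, *Acta2*, *Lmod1*, *Myocd* and *Tagln*, with fitted levels between 3.21-fold and 17.8-fold lower than in WT. No member was called higher. Over all 14025 genes tested in this comparison, 9.77% were called lower, and 5.15% were called lower by at least 2-fold, as all 7 were. The median change of the 10 members was -2.06 against 0 over all genes. The same 7 members did not overlap between WT and Sp3-/- libraries, a pattern that 16.7% of all genes showed in the lower direction. Fewer smooth muscle or myofibroblast cells and less RNA per cell cannot be told apart in these bulk cultures.

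**Figure D2:**
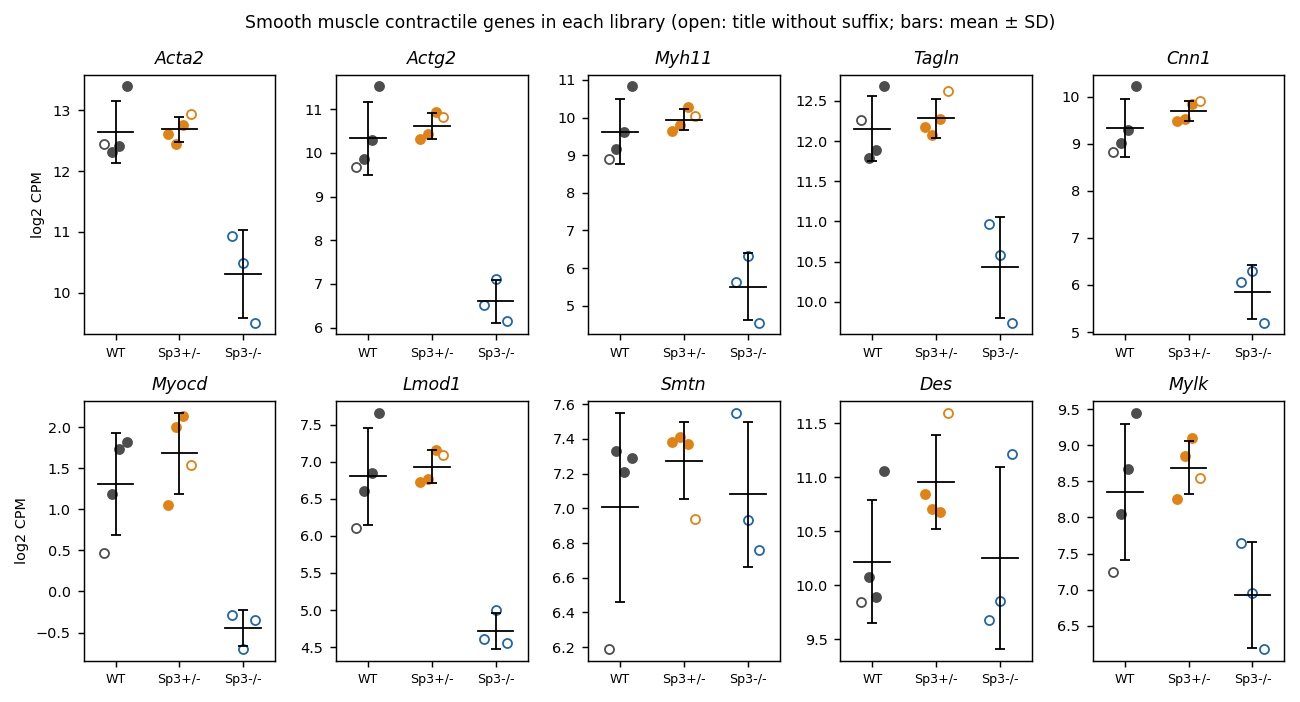
Log2 CPM of the 10 contractile genes in each library, grouped by genotype (4 WT, 4 Sp3+/-, 3 Sp3-/-), with mean and SD as black bars and open points for libraries whose title has no suffix. For 7 genes every Sp3-/- library lies below every WT library, as *Acta2* shows with 9.51 to 10.93 against 12.31 to 13.39 log2 CPM, whereas *Smtn*, *Des* and *Mylk* overlap.

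*Acta2* (chr19:34240336-34255585 on GRCm38.p6) encodes the alpha actin of vascular smooth muscle and of myofibroblasts. It measured 12.44, 12.31, 12.41 and 13.39 log2 CPM in WT libraries 468-4, 685-2, 697-1 and 697-3. The Sp3-/- libraries 685-1, 697-2 and 697-5 measured 10.93, 10.49 and 9.51 log2 CPM. All 3 lay below every WT library, and the fitted change was -2.29 (SE 0.43, 95% CI -3.29 to -1.28, adjusted p = 0.0175 by edgeR's quasi-likelihood test). Without Sp3-/- library 697-2 the change was -2.32 but the adjusted p was 0.0719. Of the 50-base stretches of its transcript, 9.46% also occur in transcripts of other genes, chiefly *Stambpl1*, which lies beside it, and cytoplasmic gamma actin copies.

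*Actg2* (chr6:83512909-83536251) encodes the gamma actin of visceral smooth muscle and had a larger estimated fall. Its WT levels were 9.67, 9.85, 10.29 and 11.52 log2 CPM in the same library order, and its Sp3-/- levels were 6.52, 7.12 and 6.16. The gap between the lowest WT and the highest Sp3-/- library exceeded the range within either genotype, and the WT libraries spread widely because 697-3 was high. The change was -3.87 (SE 0.57, 95% CI -5.19 to -2.55, adjusted p = 0.0108). None of its 50-base stretches is shared with another gene's transcripts.

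Within single libraries the actins thus shifted in proportion. *Acta2* and *Actg2* together made 76.1% ± 3.34 of the level per kb of 5 actin genes (*Acta2*, *Actg2*, *Actb*, *Acta1* and *Actc1*) in WT and 43.8% ± 10.4 in Sp3-/- cells (SD, n = 4 and 3). Cytoplasmic beta actin (*Actb*) made 21.9% ± 3.93 and 54.3% ± 10.7. The change of *Actb* itself was -0.47 (adjusted p = 0.199), so its larger share came with lower smooth muscle actins and not with a called rise. *Actg1*, the cytoplasmic gamma actin, was left out because 88.7% of its 50-base stretches occur in other genes' transcripts. An exact permutation test of the shares gave p = 0.0571 (2-sided), the smallest that 4 against 3 libraries allow. These shares and the ratios given further on were chosen after the levels had been seen.

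*Myh11* (chr16:14194527-14292188), the smooth muscle myosin heavy chain and the most selective marker of the differentiated cell, had the largest fall. WT libraries measured 8.90, 9.16, 9.62 and 10.83 log2 CPM and Sp3-/- libraries 5.63, 6.32 and 4.55. The highest Sp3-/- library lay below the lowest WT library by more than the range within either genotype. The change was -4.15 (SE 0.67, 95% CI -5.71 to -2.60, adjusted p = 0.0130), rank 25 from the most negative of the 14025 genes tested. Of the summed level per kb of 4 myosin heavy chains (*Myh11*, *Myh9*, *Myh10* and *Myh14*), *Myh11* held 22.1% ± 9.33 in WT and 2.77% ± 1.47 in Sp3-/- cells.

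*Mylk* (chr16:34745199-35002436), the myosin light chain kinase that starts contraction, did not pass the test against WT. Its levels were 7.24, 8.05, 8.67 and 9.45 log2 CPM in WT and 7.65, 6.96 and 6.18 log2 CPM in Sp3-/- libraries. WT library 468-4 lay inside the Sp3-/- range and the other 3 WT libraries above it. The estimate was -1.52 (SE 0.56, 95% CI -2.83 to -0.21, adjusted p = 0.0922, unadjusted p = 0.0282). It became a call without WT library 468-4 (-1.79, adjusted p = 0.0305) and with DESeq2 (adjusted p = 0.0142). Library 468-4 is the only WT library without a title suffix. The fit without it therefore sets WT libraries with a suffix against Sp3-/- libraries without one. With the suffix as a covariate the estimate was -0.66, and among libraries without a suffix it was -0.20. The *Mylk* locus also makes a non-muscle kinase and telokin, which gene counts do not separate.

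The log2 ratio of *Myh11* to *Mylk* counts within a library was 1.28 ± 0.31 in WT and -1.43 ± 0.71 in Sp3-/- cells. The ratio of *Actg2* to *Acta2* was -2.30 ± 0.39 and -3.71 ± 0.60, and that of *Cnn1* to *Tagln* was -2.82 ± 0.43 and -4.58 ± 0.31. Each ratio was lower in all 3 Sp3-/- libraries than in any WT library, but each pairs a member with a larger estimated fall and one with a smaller. The exact permutation p was 0.0571 for each of the 3 ratios and 0.0571 after Benjamini-Hochberg adjustment.

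Among the actin-binding members, *Cnn1* (chr9:22099221-22109221) encodes calponin 1, a thin filament protein of differentiated smooth muscle. It measured 8.82, 9.02, 9.29 and 10.22 log2 CPM in WT and 6.06, 6.29 and 5.20 in Sp3-/- libraries. Its change of -3.51 (SE 0.45, 95% CI -4.57 to -2.45) had the lowest adjusted p of the members, 0.00872. The lowest WT library stood well above the highest Sp3-/- library. Of its 50-base stretches 38.3% are also annotated in transcripts of the neighbouring *Elof1*, so its count depends on how such reads were assigned.

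*Tagln* (chr9:45929628-45936058) encodes transgelin, also known as SM22 alpha, an early and broadly expressed marker of the lineage. WT libraries measured 12.26, 11.79, 11.89 and 12.68 log2 CPM and Sp3-/- libraries 10.97, 10.58 and 9.74. The groups did not overlap, but the fall of 1.68 on the log2 scale (change -1.68, SE 0.35, 95% CI -2.50 to -0.86, adjusted p = 0.0228) was the smallest of the 7. The call was lost when any 1 of WT 697-1, WT 697-3 or Sp3-/- 697-2 was left out, with adjusted p of 0.0521, 0.0560 and 0.0849 and changes of -1.77, -1.48 and -1.72. *Tagln* overlaps *Pcsk7*, and 47.6% of its 50-base stretches are in transcripts of other annotated genes.

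*Lmod1* (chr1:135324813-135368065) encodes leiomodin 1, which nucleates actin filaments in smooth muscle. Its levels were 6.10, 6.60, 6.85 and 7.66 log2 CPM in WT and 4.61, 5.00 and 4.55 log2 CPM in Sp3-/- libraries. The 3 Sp3-/- libraries were close to each other and all below WT, with a change of -2.18 (SE 0.38, 95% CI -3.05 to -1.30, adjusted p = 0.0151). Without Sp3-/- library 697-2 the change was -2.34 and the adjusted p 0.0558. None of its stretches is shared.

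*Smtn* (chr11:3517522-3539292) encodes smoothelin, a protein of actin stress fibers in contractile smooth muscle, and was not called. WT libraries measured 6.19, 7.33, 7.21 and 7.29 log2 CPM and Sp3-/- libraries 7.55, 6.93 and 6.76. The groups overlapped, with the lowest value in WT library 468-4 and the highest in Sp3-/- library 685-1. The estimate was 0.05 (SE 0.30, 95% CI -0.66 to 0.77, adjusted p = 0.915). This interval leaves out a fall of the size estimated for any of the 7 called members. *Smtn* overlaps *Gm11946*, with 14.9% of its stretches shared.

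*Des* (chr1:75360292-75368579) encodes desmin, the muscle intermediate filament, which is made in smooth, cardiac and skeletal muscle. It measured 9.85, 10.08, 9.89 and 11.06 log2 CPM in WT and 9.68, 9.86 and 11.22 log2 CPM in Sp3-/- libraries. Sp3-/- library 697-5 held the highest value of both genotypes, and the other 2 Sp3-/- libraries were at the lower end of the WT range. The same library had the lowest *Acta2*, *Actg2*, *Myh11*, *Tagln*, *Cnn1*, *Lmod1* and *Mylk* of all. The estimate for *Des* was 0.12 (SE 0.46, 95% CI -0.95 to 1.2, adjusted p = 0.869).

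*Myocd* (chr11:65173608-65269989) encodes myocardin. It was counted at 47, 32, 80 and 117 reads in the WT libraries and 27, 25 and 7 reads in the Sp3-/- libraries, or 0.47, 1.19, 1.73 and 1.82 against -0.29, -0.70 and -0.35 log2 CPM. All 3 Sp3-/- libraries lay below WT, with a change of -1.94 (SE 0.41, 95% CI -2.90 to -0.97, adjusted p = 0.0239). The call was kept in only 2 of 7 fits that left out 1 library. The adjusted p without 1 of WT 685-2, WT 697-1, WT 697-3, Sp3-/- 697-2 or Sp3-/- 697-5 was 0.0544, 0.0652, 0.0644, 0.0989 and 0.0535, with changes between -2.0 and -1.75.

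The suffix was set beside these changes in 2 ways. With the suffix as a covariate in a fit of all 11 libraries, the same 7 members were called lower, and their changes ran from -3.68 for *Myh11* and -3.49 for *Actg2* to -1.88 for *Tagln* and -1.24 for *Myocd* (adjusted p = 0.0161, 0.0130, 0.0268 and 0.0486). *Mylk* was then -0.66 (adjusted p = 0.466) and *Smtn* 0.69 (adjusted p = 0.124). Among libraries without a suffix, WT is represented by 468-4 alone. Against it the changes were -3.24 for *Myh11*, -3.03 for *Actg2*, -2.90 for *Cnn1*, -2.03 for *Acta2* and -1.75 for *Tagln*. They were -1.38 for *Lmod1*, -0.99 for *Myocd* and -0.20 for *Mylk*, and in the other direction 0.92 for *Smtn* and 0.57 for *Des*. In that fit of 1 against 3 libraries the adjusted p of the 10 members lay between 0.293 and 0.921.

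No contractile gene differed from WT beyond the spread of the libraries in cells with a single *Sp3* copy. In Sp3+/- libraries 468-3, 685-5, 685-7 and 697-4, *Acta2* measured 12.61, 12.44, 12.76 and 12.93 log2 CPM, *Actg2* 10.32, 10.42, 10.93 and 10.81, and *Myh11* 9.64, 9.81, 10.27 and 10.05. Their fitted changes against WT were -0.02 (95% CI -0.72 to 0.68) for *Acta2*, 0.11 (95% CI -0.75 to 0.97) for *Actg2* and 0.12 (95% CI -0.86 to 1.10) for *Myh11*. *Cnn1* measured 9.49, 9.52, 9.84 and 9.91 log2 CPM, *Tagln* 12.17, 12.07, 12.27 and 12.62, and *Lmod1* 6.72, 6.77, 7.15 and 7.09. All of these lay inside the WT range. The intervals leave out changes as large as those estimated without Sp3 for these 6 genes, but not smaller ones.

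The other 4 members overlapped WT in Sp3+/- cells as well. *Myocd* had 28, 233, 196 and 57 reads, or 1.05, 2.00, 2.14 and 1.54 log2 CPM. *Mylk* measured 8.25, 8.85, 9.10 and 8.55 log2 CPM, and *Smtn* 7.38, 7.41, 7.37 and 6.94. *Des* was the member farthest from WT, at 10.85, 10.71, 10.68 and 11.60 log2 CPM, with an estimate of 0.70 (SE 0.40, 95% CI -0.18 to 1.58, unadjusted p = 0.108). Among the 10 members 0 were called lower and 0 higher by edgeR's quasi-likelihood test, and 0 had an unadjusted p below 0.05. Of all 14130 genes tested, 0% were called lower and 0% higher, and 246 had an unadjusted p below 0.05. DESeq2 and limma-voom also called 0 genes. *Sp3* itself was at 5.71 to 6.15 log2 CPM in these libraries (change -0.49, unadjusted p = 0.0131, adjusted p = 1).

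**Figure D3:**
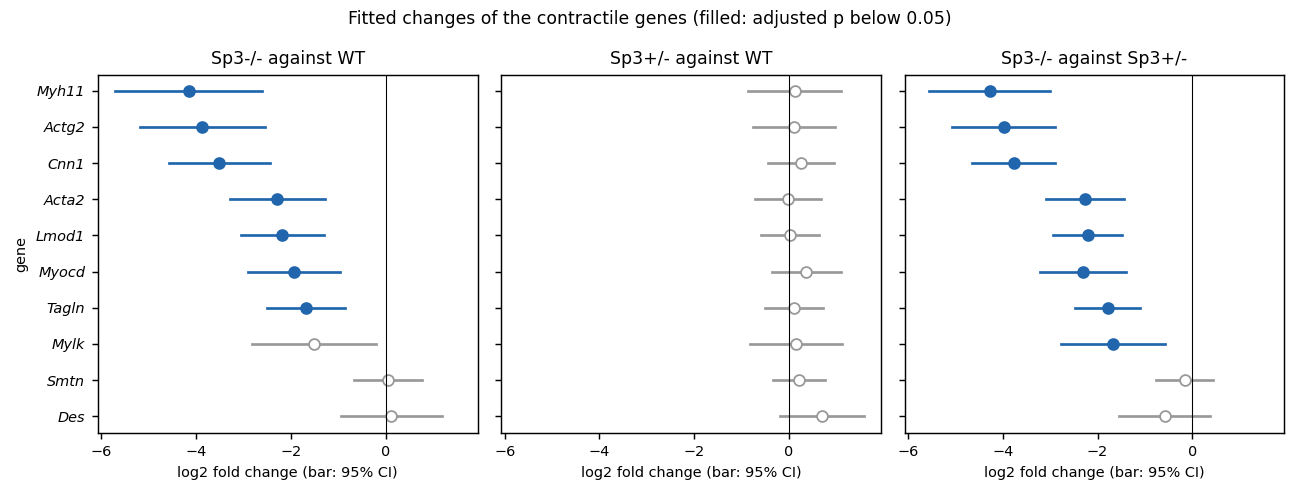
Fitted log2 fold change of each contractile gene with its 95% confidence interval in the 3 comparisons of genotypes, filled and blue where the adjusted p was below 0.05. In Sp3-/- cells 7 genes were called lower against WT and 8 against Sp3+/-, and the Sp3+/- against WT intervals all include 0. Genes that were not called could also lie left of 0, as *Mylk* did against WT (-1.52).

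Against Sp3+/- cells, the Sp3-/- cells showed lower levels of 8 members, with *Mylk* added to the 7. This comparison shares the Sp3-/- libraries with the one against WT, so the values stand side by side and are not a repeat. Of the 14130 genes tested, 12.5% were called lower. The changes were -4.28 for *Myh11* (adjusted p = 0.00195), -3.98 for *Actg2* (0.00142), -3.77 for *Cnn1* (0.000933) and -2.31 for *Myocd* (0.00500). They were -2.27 for *Acta2* (0.00403), -2.21 for *Lmod1* (0.00277), -1.79 for *Tagln* (0.00494) and -1.67 for *Mylk* (0.0340). No Sp3-/- library reached the lowest Sp3+/- library for these 8 genes, but the share of all genes with this pattern was not computed. The *Mylk* change was -1.14 with the suffix as a covariate (adjusted p = 0.197). Its call was kept in 3 of 7 fits that left out 1 library, and without Sp3+/- 685-5, Sp3+/- 685-7, Sp3-/- 697-2 or Sp3-/- 697-5 the adjusted p was 0.0704, 0.0817, 0.105 and 0.103. *Smtn* (-0.16, 95% CI -0.77 to 0.44, adjusted p = 0.691) and *Des* (-0.58, 95% CI -1.54 to 0.38, adjusted p = 0.345) again did not pass the test.

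**Figure D4:**
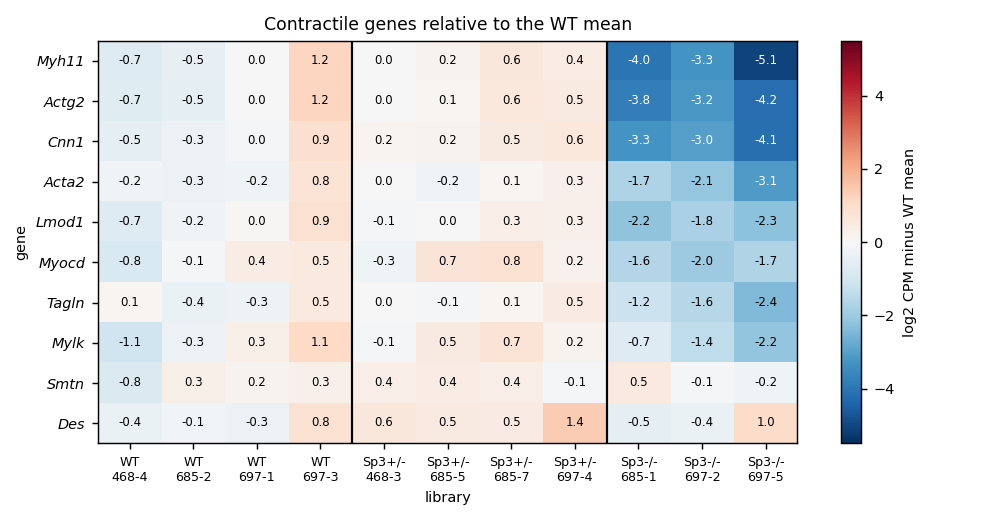
Log2 CPM of each contractile gene in each of the 11 libraries minus the mean of the 4 WT libraries, with genes ordered by their change in Sp3-/- cells. WT library 697-3 is above the WT mean for all 10 genes, the Sp3-/- libraries are below it for 8, and *Des* is high in Sp3-/- library 697-5.

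Most of the contractile genes also varied together from library to library within a genotype. Over the 45 pairs of members, Pearson's r across the 11 libraries had a median of 0.88 (0.02 to 1.00). After the genotype mean of each gene was taken away, the median was 0.60 (-0.19 to 0.98) and 41 of the 45 pairs were positive. The libraries share their depth scaling, and the same values were not computed for pairs of other genes. The correlations are therefore a description and not a trait shown to be particular to the members. *Cnn1* (median r with the other members 0.84), *Myh11* (0.82), *Mylk* (0.78), *Acta2* (0.74) and *Actg2* (0.74) went together within genotypes. *Lmod1* (0.64), *Tagln* (0.56), *Myocd* (0.46) and *Smtn* (0.41) did so less and *Des* (0.02) hardly at all. The mean z-score of the members ran from -0.35 in WT 468-4 to 1.01 in WT 697-3, from 0.43 to 0.74 in Sp3+/- and from -1.44 to -0.95 in Sp3-/- libraries.

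The genes whose log2 CPM over the 11 libraries was most like that mean score, of 11195 with a mean above 2 log2 CPM, were *Ppp1r12b* (r = 0.987), *Loxl2* (0.986), *Pdlim7* (0.981), *Akap12* (0.981) and *E130317F20Rik* (0.980). *Ppp1r12b* encodes a targeting subunit of myosin phosphatase, which reverses the action of the kinase. *Loxl2* encodes a lysyl oxidase that cross-links collagen, *Pdlim7* a PDZ and LIM domain protein of actin filaments and *Akap12* a kinase anchoring protein. These 5 correlations take in the difference between genotypes.

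In other parts of the contractile apparatus most calls were lower. Of 26 further genes for light chains, tropomyosins, phosphatase subunits, kinases and filament anchors, 12 were called lower, 1 higher and 13 neither in Sp3-/- against WT, with a median change of -0.77. Of all genes, 9.77% were called lower and 8.76% higher. The largest falls were in *Ppp1r14a* (-2.77, SE 0.62, adjusted p = 0.0272), which encodes the phosphatase inhibitor CPI-17, in *Tpm2* (-2.39, SE 0.32, adjusted p = 0.00923), which encodes beta tropomyosin, and in *Myl9* (-1.96, SE 0.36, adjusted p = 0.0163), the regulatory light chain that *Mylk* phosphorylates. *Synm*, which encodes a desmin-binding intermediate filament protein, and *Prkg1*, which encodes the cGMP-dependent kinase of relaxation, were nearest to no change at 0.03 and -0.03. In Sp3-/- against Sp3+/- cells 17 of the 26 were called lower and 9 neither, where 12.5% of all genes were called lower.

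Among regulators around SRF, 6 of 18 genes were called lower in Sp3-/- against WT and the other 12 were not called (median -0.22), against 9.77% of all genes called lower. Those lower included *Prrx1* (-2.89, SE 0.56, adjusted p = 0.0193), a homeobox gene of mesenchyme, *Csrp2* (-2.36, SE 0.32, adjusted p = 0.00981), a LIM protein that acts with SRF, and *Foxf1* (-1.61, SE 0.46, adjusted p = 0.0497), a forkhead gene of lung mesenchyme. *Elk4*, which encodes an ETS partner of SRF, was nearest to no change at 0.03. *Srf* itself was at -0.05 (SE 0.17, adjusted p = 0.855), and the genes of the myocardin-related coactivators were at -0.39 (*Mkl1*, adjusted p = 0.278) and 0.35 (*Mkl2*, adjusted p = 0.111). These 3 genes were named after their values were seen, because the program turns on them. Among *Myocd*, *Mkl1* and *Mkl2*, only *Myocd* was called lower, a call kept in 2 of 7 fits that left out 1 library. In Sp3-/- against Sp3+/- cells 6 of the 18 were called lower and 1 higher, *Mkl2* (0.42, SE 0.11, adjusted p = 0.0248), where 12.5% of all genes were called lower and 13% higher, and *Mkl1* was at -0.42 (adjusted p = 0.177).

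Immediate early genes, which SRF drives in response to growth factors, had calls only in the higher direction. Of 8 such genes, 2 were called higher and 6 neither in Sp3-/- against WT, where 8.76% of all genes were called higher. They were *Fos* (1.11, SE 0.29, adjusted p = 0.0378) and *Mcl1* (0.73, SE 0.17, adjusted p = 0.0282), with a list median of 0.67. *Ier2* was nearest to no change at 0.32 and did not pass the test (adjusted p = 0.200). In Sp3-/- against Sp3+/- cells 2 were again called higher and 6 neither, where 13% of all genes were called higher.

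Calcium handling and agonist receptor genes had calls in both directions. Of 12 genes, 1 was called lower and 2 higher, against 9.77% and 8.76% of all genes, with a median of 0.02. *Kcnmb1*, the smooth muscle subunit of the large-conductance potassium channel, changed by -2.90 (SE 0.41, adjusted p = 0.01). *Pln*, which encodes the calcium pump inhibitor phospholamban, changed by 3.06 (SE 0.74, adjusted p = 0.0323) from a very low level of -2.24 log2 CPM in WT, and its libraries overlapped between genotypes. *Itpr1*, a calcium release channel gene, rose by 1.12 (SE 0.29, adjusted p = 0.0382). *Kcnma1*, the pore of the same potassium channel, was at -0.06. Of 5 non-muscle actin and myosin genes, *Myh10* was called lower (-1.01, adjusted p = 0.0288), *Myh14* higher (1.79, adjusted p = 0.0342) and 3 neither, *Actb* being nearest to no change.

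**Figure D5:**
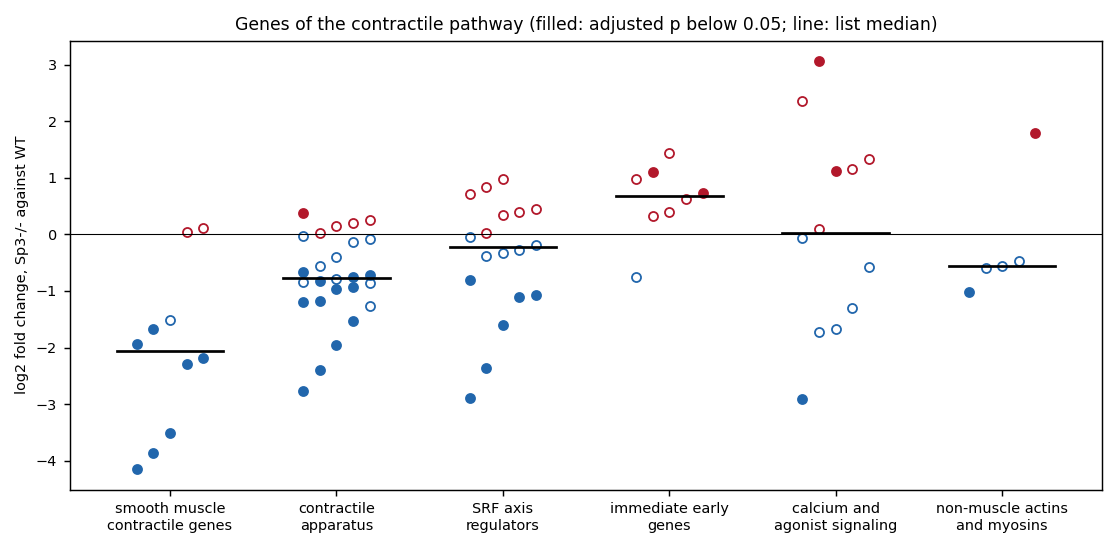
Log2 fold change in Sp3-/- against WT of the 10 contractile genes and of 5 further lists of the pathway, each point a gene, filled where the adjusted p was below 0.05, with the list median as a line. The contractile genes have the lowest median (-2.06), the contractile apparatus lies at -0.77, and the immediate early genes at 0.67.

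Marker genes of the cells that such cultures can hold also differed between genotypes, and their part in the contractile changes was not tested. The calls given here are for Sp3-/- against WT, where 9.77% of all genes were called lower and 8.76% higher. The summed level of 8 lung mesenchyme markers was 12800 to 21600 CPM in WT, 14700 to 21600 in Sp3+/- and 7140 to 18800 in Sp3-/- libraries. Each marker had reads in every library, and 2 of 8 were called lower. *Col1a1*, *Col1a2*, *Col3a1* and *Vim* made most of these sums, as the highest of the others, *Pdgfra*, reached 188 CPM. The sums therefore say little about the less abundant markers. Of 6 pericyte markers, 3 were called lower, and their sum was 347 to 672 CPM in WT, 348 to 645 in Sp3+/- and 131 to 185 in Sp3-/- libraries. Macrophage markers (5 of 6 in the tables) summed to 504 to 2670, 306 to 2590 and 2530 to 9460 CPM, with 2 called higher. These sums also went with the title suffix. WT 468-4 (2670 CPM) and Sp3+/- 697-4 (2590 CPM), which have no suffix, exceeded Sp3-/- 685-1 (2530 CPM), and the libraries with a suffix lay between 306 and 750 CPM. The same 2 libraries were the lowest of their genotypes for pericyte markers, at 347 and 348 CPM. Mesothelial markers summed to 696 to 1670, 1350 to 2390 and 2080 to 5610 CPM, with 3 of 6 called higher. Epithelial markers were low, at 14.5 to 33.9, 20.9 to 31.1 and 47.3 to 150 CPM, with 3 of 6 called higher, and each of 5 endothelial markers overlapped between WT and Sp3-/- libraries (summed 23.9 to 68.5, 24.3 to 66.1 and 33.4 to 38.0 CPM).

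Desmin is shared with striated muscle, whose markers were examined for that reason. Of 13 striated muscle genes 9 were tested, and 4 of these were called higher and 5 neither in Sp3-/- against WT, where 8.76% of all genes were called higher. The summed level was 86.0 to 339 CPM in WT, 160 to 235 in Sp3+/- and 41.9 to 241 in Sp3-/- libraries. Much of it in WT was *Acta1*, the skeletal muscle alpha actin, with 67.1 to 321 CPM in WT and 20.6 to 48.5 CPM in Sp3-/- libraries (-2.02, SE 0.61, adjusted p = 0.0575). The 4 called higher were *Tnni1* (3.55), *Tnnt2* (2.82), *Myl7* (2.86) and *Ttn* (1.56), genes of the striated sarcomere, and *Tnnt2* and *Myl7* overlapped between the genotypes. *Ckm* and *Myod1*, which mark differentiated and committed skeletal muscle, had 0 reads in all WT libraries, and *Myod1* had 0 reads in all Sp3-/- libraries. *Tnnt2*, the cardiac troponin T gene, reached 6.25 to 119 CPM in Sp3-/- and 6.63 to 9.87 CPM in WT libraries.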

How the data were processed

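For each of the 11 libraries the authors deposited whole-number counts of reads per gene symbol, without normalization. They had checked 50 bp single end reads with FastQC 0.10.1, aligned them with STAR 2.4.5a to mm10 and counted them with htseq-count. The annotation version and strand setting are not given in the sources used here, so which reads of overlapping genes were counted is not known. Reads tallied outside the gene counts were left out (38.4% to 40.9% of each library, of which alignments that were not unique made 30.1% to 33.7% of the library and ambiguous reads 0.38% to 0.44%). No pair of libraries of a genotype was alike within counting noise (lowest chi-square per degree of freedom 16.6). The number of libraries limits the precision.

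A gene entered a fit when its CPM passed 1 in any library, and was tested by edgeR 4.0.16 in R 4.3.3 (TMM, robust quasi-likelihood F-test, Benjamini-Hochberg adjustment). Sp3-/- against WT used those 7 libraries, and the other comparisons used all 11. Standard errors were derived from the test statistic and the fold change. Alternatives were DESeq2 1.42.0, limma-voom (limma 3.58.1) with and without a consensus correlation, other scalings and filters, the title suffix as a covariate or held fixed, a block on the first label number, all 11 libraries in 1 fit, and each library left out.

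The members and lists were chosen with earlier results of these data known. Named genes were all members, *Sp3*, at most 3 called genes with the largest change and the gene nearest no change of each pathway list, and the 5 genes most like the members' mean z-score. Others are named where a passage turns on them, and 1 listed item is not reported here. Positions and promoters are RefSeq's on GRCm38.p6. Transcript lengths and shared 50-base stretches are from GENCODE vM39. The deposited files hold no comparisons by the authors.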

Additional observations from a re-analysis of the deposited data

Results flagged for a closer look

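Of 20 sets of 4 libraries (10 genes in WT and in Sp3+/-), 3 held a library far from the other 3 by Dixon's ratio of the gap to the range. The ratio passed its 95% critical value for 4 samples, which chance does in about 1 of 20 sets. *Acta2* was high in WT library 697-3 (ratio 0.874), at 13.39 log2 CPM against 12.31 to 12.44 in the other WT libraries. *Smtn* was low in WT library 468-4 (ratio 0.901), at 6.19 against 7.21 to 7.33 log2 CPM. *Smtn* was also low in Sp3+/- library 697-4 (ratio 0.929), at 6.94 against 7.37 to 7.41 log2 CPM. The 2 libraries low in *Smtn* are the WT and Sp3+/- libraries whose titles have no suffix, and the 3 Sp3-/- libraries, which have none either, measured 7.55, 6.93 and 6.76 log2 CPM. The suffix is that of the titles, and the file of 697-4 carries suffix 2 in its name. The part of the suffix in these values was not tested.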

How the results depend on the processing

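The count of members called lower in Sp3-/- against WT, 7, lay between 5 and 8 under 16 of 18 alternatives. It was 3 without Sp3-/- library 697-2, where *Actg2*, *Myh11* and *Cnn1* remained, and 0 among libraries without a suffix, where WT is 1 library that is assumed to vary like the others. Fits that left out 1 library gave 3 to 8 here, 7 to 8 for Sp3-/- against Sp3+/- (8) and 0 to 0 for Sp3+/- against WT (0). *Mylk* also passed the threshold in the fit of all 11 libraries. No called member changed sign. Over all genes, the 2599 calls in Sp3-/- against WT became 4297 with DESeq2 and 282 without Sp3-/- library 697-2. With the suffix as a covariate they were 1329, and 763 in place of 3607 against Sp3+/-. In deviations from genotype means, the 5 pairs of a WT and an Sp3-/- library sharing a first label number had r from -0.44 to 0.38, so the number was not taken to pair them. Pairs with Sp3+/- libraries were not checked. A replicate block on the first label number called 8, 0 and 8 members in Sp3-/- against WT, Sp3+/- against WT and Sp3-/- against Sp3+/-. It called 4031 genes in the first comparison and 2956 in the last. In the first, WT library 468-4 is the only library with its number, so the block leaves it no weight.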
